A study of Mus musculus with 67 samples.

Results

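The genes examined here are 53 genes of DNA replication and mitosis, taken by their names from a list of 30 replication genes and 23 mitosis genes, out of 46983 gene IDs in the RNA-seq tables of mouse forelimb buds. No expression value entered the choice, and all 53 were found and passed the filter on low values. The study asked what the transcription factor GLI3, a repressor of Hedgehog target genes when the pathway is off, does in the forelimb bud before and after Hedgehog signalling begins. RNA was sequenced from 14 libraries in 4 groups: E9.25 WT (n = 3), E9.25 *Gli3*-/- (n = 4), E10.5 WT (n = 4) and E10.5 *Gli3*-/- (n = 3). The E9.25 libraries came from whole forelimb buds of embryos with 21 to 23 somites, and the E10.5 libraries from the anterior part of forelimb buds of embryos with 32 to 35 somites. Each library was a pool of several pairs of buds, and each counts as 1 replicate, so the p-values measure only the spread between such pools. All embryos were on the Swiss Webster background, and the *Gli3*-/- embryos carried the Xt-J allele, a deletion of part of *Gli3* that is present in every cell of the embryo. Stage and dissection changed together, so in every comparison of E10.5 with E9.25 the effect of age and the effect of taking only the anterior part cannot be told apart.

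A dividing cell first licenses its replication origins by loading the MCM helicase, then fires them, copies its DNA with polymerases that are held on the template by the sliding clamp PCNA, and finally separates the copies on the mitotic spindle. The genes of the first steps are transcribed towards the start of S phase under the E2F factors, and those of mitosis later, towards G2 and M, largely through promoters that carry a CCAAT box and a cell cycle homology region (CHR). The early limb bud grows by rapid division of its mesenchyme, supported by fibroblast growth factors from the overlying ectodermal ridge.

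Values are TPM, the share of each gene among the transcripts of a library, scaled to gene length and to the same total in every library. Tests were made with limma on log2(TPM + 1), and differences are given on that scale. Depth was estimated at 38.1 to 56.8 M reads per library. One library has to be described before the results. *Gli3* itself was at 44.2 and 44.6 TPM in E9.25 WT replicates 1 and 3 and at 14.3 to 20.8 TPM in the 4 E9.25 *Gli3*-/- libraries, but at 15.8 TPM in the library labelled E9.25 WT replicate 2, which goes against its label. The Xt-J deletion leaves part of *Gli3* in place, so that reads from the rest of the gene can remain. At E10.5 *Gli3* was at 73.4 to 89.7 TPM in WT and 38.7 to 40.9 TPM in *Gli3*-/-. The same library had low levels of 25 of 25 genes with very long mRNAs, a list chosen after the values were seen. Their median lay 1.89 log2 units below the other libraries of its group on average, where the median of all expressed genes lay 0.20 below. For E9.25 WT replicates 1 and 3 the median of the long-mRNA genes was 0.98 and 0.91, each against a mean that holds this library. In the other groups it ranged from -0.34 to 0.41. The library labelled E9.25 WT replicate 2 also had the lowest estimated depth, at 38.1 M reads. Its flank and lateral plate marker genes summed to 31.9 TPM. The other E9.25 WT libraries were at 67.9 and 30.8 TPM and the E9.25 *Gli3*-/- libraries at 84.3 to 223 TPM. The cause of its low *Gli3* was not tested. Main counts and medians that use this library are given with and without it. Other values include it unless stated otherwise.

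In these buds the 53 genes were abundant. Their median level was 121 TPM, against 13.3 TPM for all 16368 expressed genes, and 29 of the 53 lay in the top 10% of expressed genes. Together they held 0.624% to 0.773% of the TPM of a library. Since TPM is a level per length, genes can be set side by side on it. The sliding clamp gene *Pcna* (chromosome 2, 132249162 to 132253314, minus strand) had the highest mean over the 14 libraries at 549.6 TPM, and the transcription factor gene *E2f2* (chromosome 4, 136172394 to 136196057, plus strand) the lowest at 7.38 TPM. The most abundant gene of each role was the helicase subunit *Mcm7* at 307 TPM for origin licensing, *Rrm2* of ribonucleotide reductase at 340.4 TPM for nucleotide supply, *Uhrf1*, which reads DNA methylation at the fork, at 266 TPM for chromatin copying, and cyclin E1 (*Ccne1*) at 123 TPM for S phase entry. On the mitotic side it was cyclin B1 (*Ccnb1*) at 251 TPM among cyclins and kinases, the ubiquitin-conjugating enzyme *Ube2c* at 219.6 TPM for the checkpoint and anaphase-promoting complex, the centromeric histone *Cenpa* at 203 TPM for spindle and kinetochore, and topoisomerase IIα (*Top2a*) at 356 TPM beside the proliferation marker *Mki67*. Most varied little: the highest library was less than 2 times the lowest for 40 of the 53, with a median ratio of 1.66, and more than 3 times for 6. The scatter between libraries of a group was smaller than for genes at large, with a median SD of 0.194 against 0.252 in E9.25 WT, 0.20 against 0.229 in E9.25 *Gli3*-/-, 0.101 against 0.146 in E10.5 WT and 0.092 against 0.131 in E10.5 *Gli3*-/-. The 53 genes are on average far more abundant than those genes, and no matching on level was made.

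**Figure D1:**
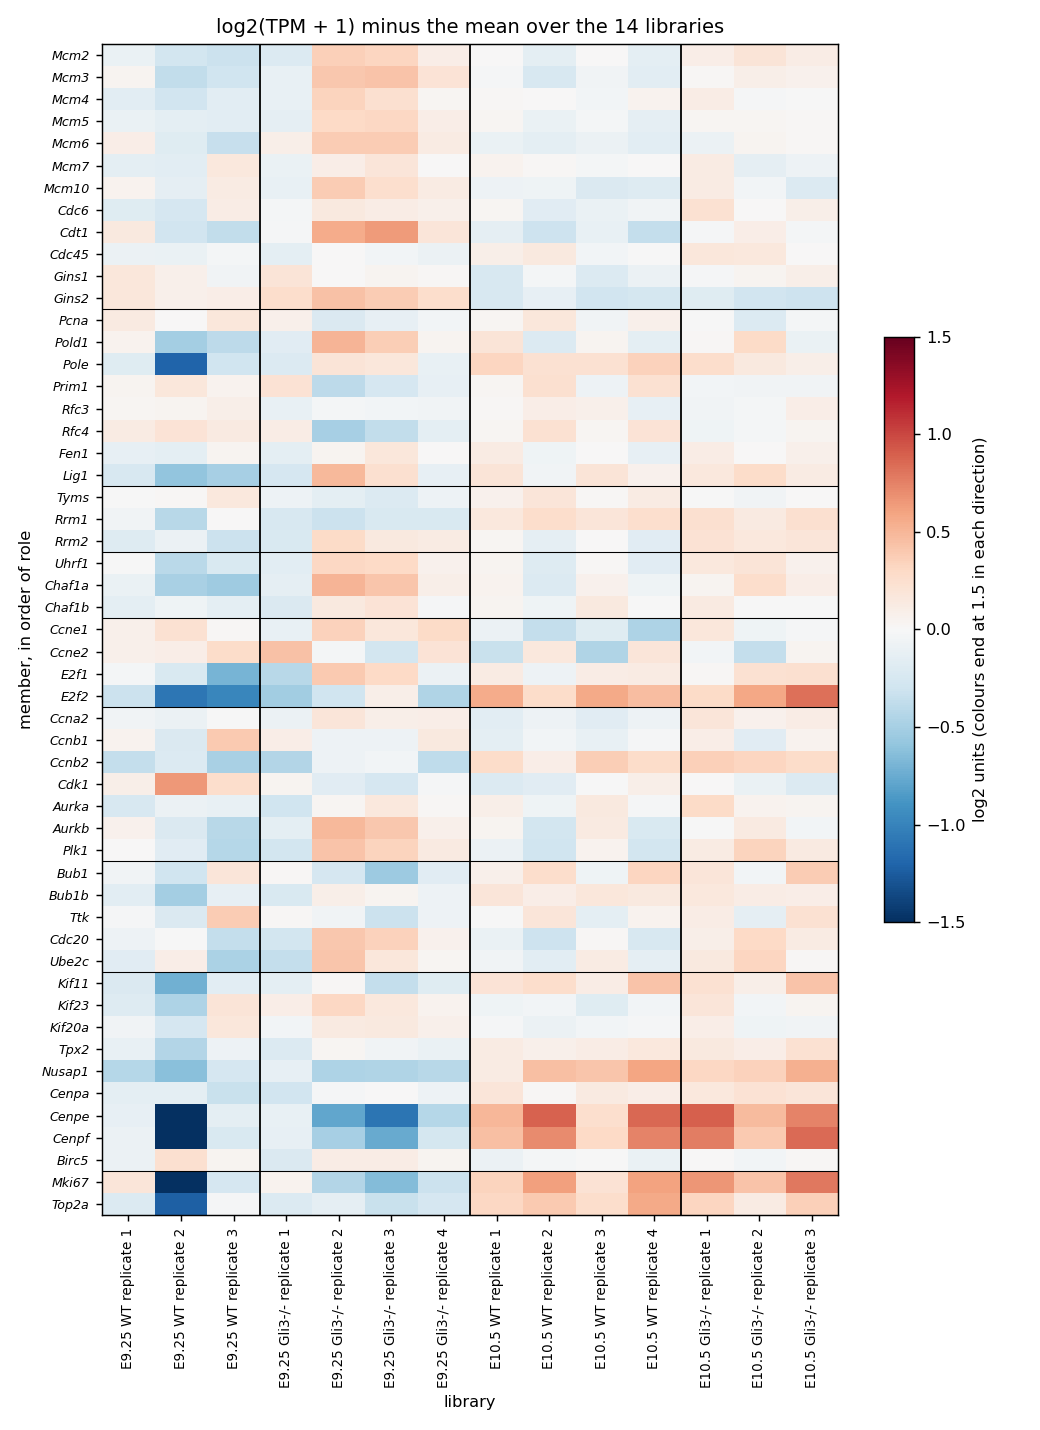
Heat map of the 53 genes (rows, by role) in the 14 libraries (columns, by group), where colour is log2(TPM + 1) minus the gene's mean over the 14 libraries and ends at ±1.5. The library labelled E9.25 WT replicate 2 stands apart for a few genes, with *Mki67* at 9.85 TPM there, while E9.25 *Gli3*-/- replicates 2 and 3 are the highest columns for several helicase genes such as *Mcm2* (233 and 227 TPM).

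Promoter stretches of 2 mitosis genes and 2 replication genes are printed, to show how much the letters vary: *Top2a* and *Rrm1* rose with stage in both genotypes, *Bub1b* was called in WT alone, and *Mcm5* was called in no comparison on TPM. Each stretch is the 150 bases before the RefSeq start of the gene, which need not be the start in the deposited tables, from RefSeq promoter windows of GRCm38.p6, written 5′ to 3′ on the strand of the gene. Capitals mark CCAAT or its reverse complement ATTGG, the CHR letters TTTGAA or TTTAAA on either strand, and E2F-like letters (TTTCCCGC, TTTGGCGC, TTTCGCGC or TTTGCCGC on either strand). They lie at chr11:99024190-99024339 (*Top2a*, minus strand), chr2:118598061-118598210 (*Bub1b*, plus strand), chr7:102441545-102441694 (*Rrm1*, plus strand) and chr8:75109359-75109508 (*Mcm5*, plus strand).
Top2a: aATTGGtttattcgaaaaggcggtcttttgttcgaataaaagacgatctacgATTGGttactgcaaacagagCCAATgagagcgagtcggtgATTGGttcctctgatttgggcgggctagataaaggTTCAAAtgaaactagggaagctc
Bub1b: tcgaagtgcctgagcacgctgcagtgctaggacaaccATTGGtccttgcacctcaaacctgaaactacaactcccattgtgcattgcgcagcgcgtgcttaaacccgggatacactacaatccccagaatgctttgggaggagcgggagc
Rrm1: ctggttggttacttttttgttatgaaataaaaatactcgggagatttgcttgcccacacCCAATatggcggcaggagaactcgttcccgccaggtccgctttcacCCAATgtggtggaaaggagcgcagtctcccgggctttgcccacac
Mcm5: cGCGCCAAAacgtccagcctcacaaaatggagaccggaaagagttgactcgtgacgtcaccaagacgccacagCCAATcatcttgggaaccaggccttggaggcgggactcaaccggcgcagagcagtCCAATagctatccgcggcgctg

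*Top2a* carries 4 CCAAT matches and 1 CHR match, which starts 23 bases before the RefSeq start. *Bub1b* carries 1 CCAAT match and no CHR letters, and *Birc5*, a mitosis gene that is not printed, has no match in the same 150 bases. *Rrm1* carries 2 CCAAT matches, and *Mcm5* 2 CCAAT matches with an E2F-like match at the far end. RefSeq windows were matched for 44 of the 53 genes, in 31 windows of replication genes and 19 of mitosis genes. Over 250 bases upstream, CCAAT was found in 89.5% of the mitosis windows, 58.1% of the replication windows and 33.8% of all 32851 windows. CHR letters were in 63.2%, 19.4% and 25.2%, and CCAAT together with CHR letters in 57.9%, 12.9% and 8.78%. E2F-like letters were in 5.26% of the mitosis windows, 19.4% of the replication windows and 1.86% of all windows. These shares describe the sequence, and binding was not measured by them.

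Between E9.25 and E10.5 a set of mainly mitotic genes rose on the TPM scale in both genotypes. In *Gli3*-/- buds 10 of the 53 genes passed the test, 9 higher at E10.5 and 1 lower, and in WT buds 17 passed, 14 higher and 3 lower. In both genotypes the kinetochore genes *Cenpe* and *Cenpf*, the spindle protein gene *Nusap1*, the spindle motor gene *Kif11*, *Top2a*, cyclin B2 (*Ccnb2*), *Rrm1* and *E2f2* were higher at E10.5, and the helicase accessory gene *Gins2* was lower. These 9 genes are 90% of the calls in *Gli3*-/- and 52.9% of the calls in WT, and 8 genes passed in WT alone and *Mki67* in *Gli3*-/- alone. Stage changed very many other genes too. Of all genes tested, 25% were called in *Gli3*-/- (15.8% higher, 9.17% lower) and 48.7% in WT (38.1% higher, 10.6% lower), so the 18.9% and 32.1% of the 53 genes that were called are below the share over all genes.

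In *Gli3*-/- buds 7 of the 23 mitosis genes were higher and 0 lower, and of the 30 replication genes 2 were higher and 1 was lower. The median difference was 0.16 for the mitosis genes and 0.0008 for the replication genes, beside 0.06 for all genes tested. With E9.25 *Gli3*-/- replicate 1 left out, 10 of the 53 genes were called higher and 4 lower, and 28.3% of all genes were called. *Mki67* (chromosome 7, 135689788 to 135716379), whose protein coats mitotic chromosomes, was at 51.4, 36.2, 31.2 and 39.2 TPM in the E9.25 libraries and at 78.9, 67.0 and 86.1 TPM at E10.5. The groups did not overlap, and the difference was 0.97 (SE 0.16, adjusted p = 0.00195). *Cenpe*, the kinetochore motor that moves chromosomes to the metaphase plate, was at 18.6, 11.3, 8.86 and 14.7 TPM and then at 38.4, 28.3 and 34.4 TPM, a difference of 1.31 (SE 0.22, adjusted p = 0.00175). *Cenpf*, which binds the outer kinetochore, was at 18.5, 14.1, 11.6 and 16.7 TPM and then at 35.3, 26.8 and 37.5 TPM, a difference of 1.08 (SE 0.18, adjusted p = 0.0015). For both genes every E10.5 library lay above every E9.25 library.

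*Nusap1* (chromosome 2, 119618298 to 119651244), which bundles spindle microtubules, was at 41.0, 32.0, 32.3 and 33.2 TPM at E9.25 and at 55.7, 57.0 and 64.9 TPM at E10.5, with a difference of 0.76 (SE 0.12, adjusted p = 0.00139). *Top2a* (chromosome 11, 98992943 to 99024189), which untangles sister DNA, was at 297, 312, 271 and 288 TPM and then at 429, 374 and 439.9 TPM, with a difference of 0.50 (SE 0.10, adjusted p = 0.00547). Both were clear of overlap. Smaller rises were seen for *Ccnb2* (0.56), whose level went from 66.4, 85.9, 88.2 and 69.2 TPM to 117, 114 and 109.7 TPM, and for *Kif11* (0.41). Among replication genes *E2f2*, an activator of S phase genes, went from 4.41, 5.33, 7.21 and 4.68 TPM to 8.44, 10.6 and 12.8 TPM (0.86, SE 0.19, adjusted p = 0.00824). *Rrm1*, the large subunit of ribonucleotide reductase, went from 200.2, 189.6, 202 and 201 TPM to 279.6, 259.8 and 279 TPM, a rise of 0.46. *Gins2* (chromosome 8, 120578633 to 120589304), a subunit of the active helicase, was the single gene called lower, from 46.8, 52.8, 50.6 and 46.8 TPM to 34.1, 31.7 and 31 TPM, with all E10.5 libraries below all E9.25 libraries (-0.59, SE 0.10, adjusted p = 0.00214). *Pcna* did not pass, with a difference of -0.01 and levels from 472 to 579 TPM at E9.25 and 475 to 544 TPM at E10.5.

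**Figure D2:**
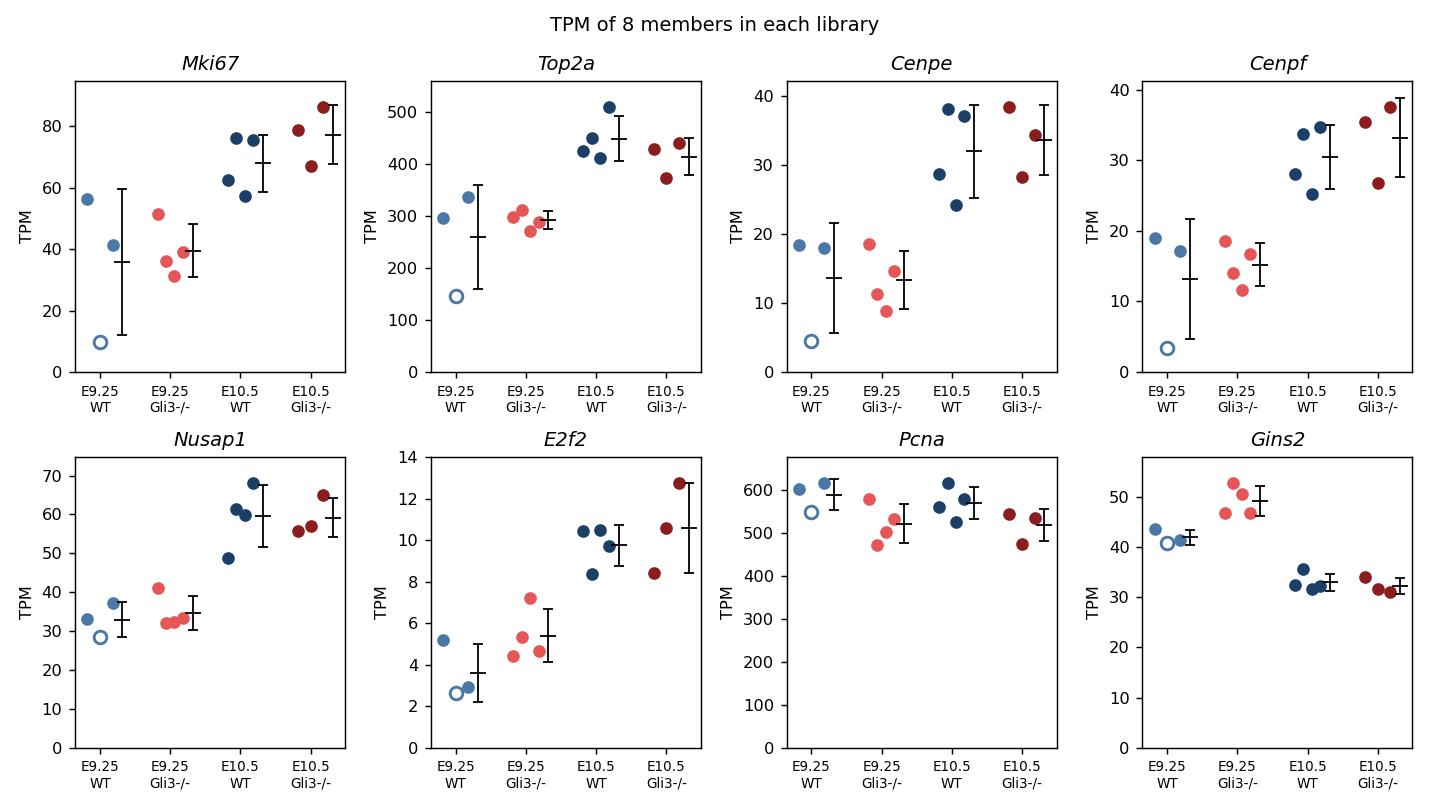
TPM (y axis) of named genes in each library by group (x axis), where points are libraries, the open circle is the library labelled E9.25 WT replicate 2, and black marks are the mean ± SD of the group. The open circle lies far below the other points for *Mki67* (9.85 TPM), *Cenpe* (4.48 TPM) and *Cenpf* (3.45 TPM), and the E10.5 points for *Gins2* (31 to 35.6 TPM) lie below all E9.25 points (40.8 to 52.8 TPM).

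In WT buds the same direction was seen, and this comparison includes the library labelled E9.25 WT replicate 2. With that library several genes had larger differences and larger errors than in *Gli3*-/-. Without it *Cenpf*, *Cenpe* and *Mki67* had smaller differences (0.71, 0.76 and 0.47, against 1.08, 1.31 and 0.97 in *Gli3*-/-). *E2f2* kept a larger one (1.12 against 0.86). Of the 23 mitosis genes 9 were higher and 1 lower. Of the 30 replication genes 5 were higher and 2 lower. Over all genes tested 38.1% were higher and 10.6% lower. The median difference was 0.19 for the mitosis genes and 0.07 for the replication genes. Both lay below the median of all genes tested, 0.34. *Cenpf* was at 19.0, 3.45 and 17.1 TPM at E9.25 and at 28.1, 33.7, 25.2 and 34.7 TPM at E10.5. *Cenpe* was at 18.4, 4.48 and 18.1 TPM and then at 28.7, 38.1, 24.2 and 37.2 TPM. The second of the 3 values at E9.25 is that of the library labelled E9.25 WT replicate 2, and for both genes the E10.5 libraries lie above all of them. The differences were 1.41 for *Cenpf* (SE 0.46, adjusted p = 0.0337) and 1.36 for *Cenpe* (SE 0.42, adjusted p = 0.0261), and without that library 0.71 (adjusted p = 0.00488) and 0.76 (adjusted p = 0.00914). *Mki67* was at 56.3, 9.85 and 41.3 TPM and then at 62.6, 76.1, 57.4 and 75.5 TPM. Its difference of 1.2 (SE 0.48) did not pass the test with all libraries (adjusted p = 0.0648) and passed at 0.47 (adjusted p = 0.0358) without that library.

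*Top2a* was at 296, 146 and 337 TPM at E9.25 WT and at 425, 449.7, 411 and 509 TPM at E10.5 WT, with a difference of 0.87 (SE 0.25, adjusted p = 0.0213) and of 0.50 with the library labelled E9.25 WT replicate 2 left out. *Nusap1* depended less on it: 33, 28.5 and 37.3 TPM became 48.8, 61.4, 59.9 and 68.0 TPM, a difference of 0.83 (SE 0.14, adjusted p = 0.00219), or 0.74 without it. *E2f2* was at 5.19, 2.66 and 2.94 TPM and then at 10.4, 8.39, 10.52 and 9.71 TPM, a difference of 1.26 (SE 0.20, adjusted p = 0.00197), or 1.12 without it. *Pole*, the catalytic subunit of the leading-strand polymerase, rose by 0.84 (SE 0.22, adjusted p = 0.0157), or by 0.52 without it. Its levels were 25.4, 12 and 23.3 TPM, then 36.5, 33.9, 33.9 and 37.1 TPM. Also higher were *Kif11* (0.62), *Ccnb2* (0.60), the DNA ligase gene *Lig1* (0.54), the checkpoint kinase gene *Bub1b* (0.42), *Rrm1* (0.37), the spindle assembly factor gene *Tpx2* (0.32), *Cenpa* (0.31) and *Mcm4* (0.21).

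Lower in WT at E10.5 were the mitotic kinase gene *Cdk1* (-0.41, SE 0.14, adjusted p = 0.0397), *Ccne1* (-0.38, SE 0.11, adjusted p = 0.0209) and *Gins2* (-0.34, SE 0.09, adjusted p = 0.0167). *Gins2* went from 43.7, 40.8 and 41.5 TPM to 32.5, 35.6, 31.7 and 32.2 TPM, and *Ccne1* from 128, 143 and 124 TPM to 114, 94.6, 107 and 88.1 TPM. With the library labelled E9.25 WT replicate 2 left out, the calls were 13 higher and 2 lower, with 43.2% of all genes called. *Cdk1*, *Mcm4* and *Tpx2* no longer passed and *Mki67* did. The differences were then -0.25 for *Cdk1*, -0.32 for *Ccne1* and -0.36 for *Gins2*. The long-mRNA genes moved with the same contrast, with a median difference of 0.97 in WT with the library, 0.38 without it and 0.09 in *Gli3*-/-. Their part in the WT differences of *Cenpe*, *Cenpf* and *Mki67* was not tested.

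The direction of the WT stage difference rests on the scaling between libraries. On TPM the median of all genes tested was 0.34 higher at E10.5, and the median of the 53 genes 0.11 (0.07 beside 0.25 for all genes where the library labelled E9.25 WT replicate 2 was left out), so that 13 of the 53 lay above the median gene. With median-of-ratios size factors, which set the median gene near 0, the calls in WT were 4 higher (*E2f2*, *Pole*, *Nusap1* and *Cenpe*) and 15 lower, beside 41.5% of all genes called, and with quantile normalization 13 higher and 3 lower, beside 37%. In *Gli3*-/-, where the median of all genes was 0.06, size factors gave 8 higher and 4 lower, beside 30.2% of all genes called. Among the genes called, *Pole*, *E2f2* and *Nusap1* in WT, and *Gins2*, *Rrm1*, *E2f2*, *Ccnb2*, *Nusap1*, *Cenpe* and *Cenpf* in *Gli3*-/-, passed under every alternative run, including those that left out 1 library.

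A single scaling factor per library cancels in the summed TPM of the 23 mitosis genes over that of the 30 replication genes within a library. This ratio was 0.672, 0.675 and 0.721 in E9.25 WT, with the library labelled replicate 2 at 0.675, and 0.631 to 0.674 in E9.25 *Gli3*-/-. At E10.5 it was 0.719 to 0.791 in WT and 0.748 to 0.771 in *Gli3*-/-. The stages were apart in *Gli3*-/- and met in WT, where 1 E9.25 library lay just above the lowest E10.5 library, and the genotypes overlapped at both stages. Quantile normalization, which does not cancel, gave 0.677, 0.681 and 0.728 in E9.25 WT, 0.629 to 0.675 in E9.25 *Gli3*-/-, 0.717 to 0.784 in E10.5 WT and 0.748 to 0.768 in E10.5 *Gli3*-/-, so that the E9.25 genotypes came apart by a narrow margin. Sums of TPM weigh the most abundant genes most, and *Top2a* is the most abundant mitosis gene. Its share in these differences of the ratio was not tested. Marker genes of several cell types also differed between the stages. Summed TPM of 4 muscle progenitor genes was 1.23 to 4.57 at E9.25 and 28.7 to 54.2 at E10.5. That of 4 macrophage genes was at most 0.628 and then 3.27 to 5.33. Of these 4 genes *Adgre1* and *Ptprc* were under 1 TPM in every library. The 2 that were tested were called higher at E10.5 in both genotypes. Most flank and lateral plate genes were lower at E10.5: 4 of 5 tested were called lower in WT and 1 higher, and 6 of 7 lower in *Gli3*-/- and 1 higher, with summed TPM of 84.3 to 223 and then 26.3 to 40.03 in *Gli3*-/-. Of 6 endothelial genes 2 were higher in WT, and 1 was higher and 3 lower in *Gli3*-/-. Of 6 surface ectoderm genes 2 were higher in WT, and 3 were higher and 2 lower in *Gli3*-/-. Limb mesenchyme genes changed too: of 6, 2 were higher and 1 lower in WT, and 1 was higher and 2 lower in *Gli3*-/-. Their part in the stage differences was not tested. In such bulk samples fewer cells in a phase of the cycle and less RNA per cell cannot be told apart.

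**Figure D3:**
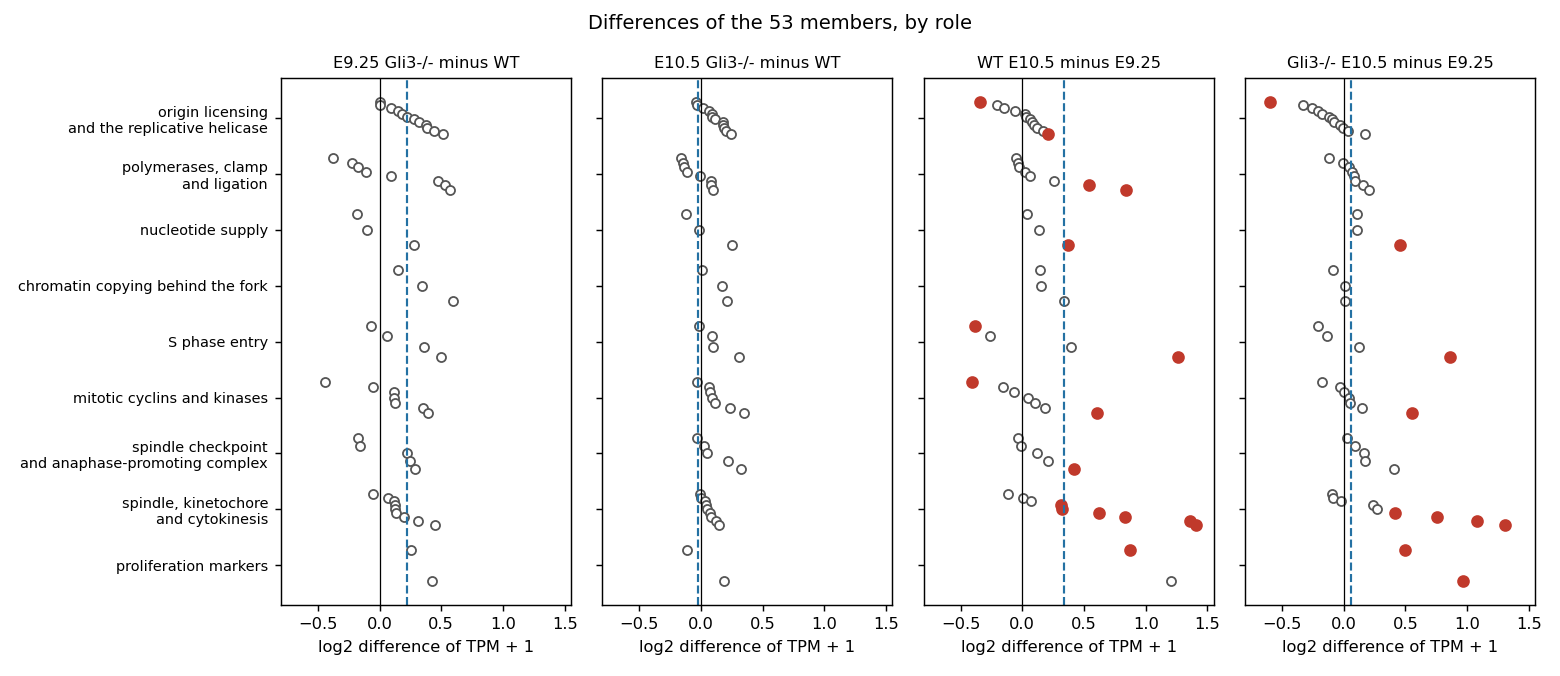
Difference in log2(TPM + 1) of each of the 53 genes (points) by role (rows) in the 4 comparisons of groups, where filled red points passed the limma test and the dashed blue line is the median of all genes tested. Called genes are found in the 2 stage comparisons only (17 in WT and 10 in *Gli3*-/-), and the points at E10.5 between the genotypes all lie between -0.16 and 0.35.

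Loss of *Gli3* at E9.25, before Hedgehog signalling, moved none of the 53 genes past the test. With limma 0 of 53 were called, beside 0.136% of all genes (20 of 14760). An unadjusted p under 0.05 was seen for 12 of the 53, or 22.6%, and for 22% of all genes. Differences ran from -0.44 to 0.59 with a median of 0.15, and 41 were positive, but all genes tested had a median of 0.23 and 22 of the 53 lay above it. With median-of-ratios size factors the median turned to -0.09. In a model that pools the spread of all 14 libraries 5 genes passed, with *Chaf1a*, *Mcm6*, *Mcm3* and *Lig1* higher and *Cdk1* lower in *Gli3*-/-, and 8.03% of all genes did. The 95% interval lay within 1 log2 unit of 0 for 48 of the 53, so that a change by a factor of 2 or more was outside it for these.

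The largest E9.25 differences were those of *Chaf1a*, the large subunit of the histone chaperone CAF-1, of *Pole* and of *Lig1*. *Chaf1a* was at 81.3, 62.2 and 60.1 TPM in WT and at 79.4, 125, 117 and 92.8 TPM in *Gli3*-/-, a difference of 0.59 (SE 0.18, adjusted p = 0.217). *Pole* was at 24.8, 33.1, 32.7 and 26.7 TPM in *Gli3*-/-, a difference of 0.57 (SE 0.24, adjusted p = 0.22), and 12 TPM in the library labelled E9.25 WT replicate 2 is its lowest value. *Lig1*, which seals nicks between Okazaki fragments, was at 110.1, 86.4 and 91.9 TPM in WT and at 109, 182, 154 and 119.9 TPM in *Gli3*-/- (0.53, SE 0.18, adjusted p = 0.217). For all 3 genes the groups overlapped. Where the library labelled E9.25 WT replicate 2 was left out, their differences were 0.54 for *Chaf1a*, 0.25 for *Pole* and 0.46 for *Lig1*. *Mki67* (0.42, SE 0.46, adjusted p = 0.56), *Top2a* (0.25, SE 0.24, adjusted p = 0.503) and *Pcna* (-0.18, SE 0.12, adjusted p = 0.341) did not pass. *Mki67* turned to -0.31 and *Top2a* to -0.11 where the library labelled E9.25 WT replicate 2 was left out, and *Pcna* was then at -0.23. *Pcna* was at 603, 549.6 and 616 TPM in WT and at 579, 472, 503 and 534 TPM in *Gli3*-/-.

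Groups were clear of overlap at E9.25 for *Mcm4* and *Gins2*, higher in *Gli3*-/-, and for *Cdk1*, *Rfc4*, *Tyms* and *Rfc3*, lower in *Gli3*-/-. That is 3.77% and 7.55% of the 53, beside 9.97% above and 3.36% below for all genes tested. *Cdk1* was at 161, 238 and 181 TPM in WT and at 155, 134, 126 and 149 TPM in *Gli3*-/-, and its highest value is that of the library labelled E9.25 WT replicate 2. Without that library 0 of the 53 and 0.123% of all genes were called, 2 of the 53 (3.77%) and 11% of all genes had an unadjusted p under 0.05, and the median was 0.10 beside 0.14 for all genes. Then 2 of the 53 (3.77%) lay above and 6 (11.3%) below, beside 12.1% and 6.37% of all genes.

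Among the E9.25 *Gli3*-/- libraries, replicates 2 and 3 had the most helicase RNA. The summed TPM of the 12 origin licensing and helicase genes was 2044 and 2042 there and 1597 and 1780 in the other 2, against 1632, 1459 and 1543 in WT. *Mcm2*, a subunit of the MCM ring, was at 158, 233, 227 and 195 TPM in *Gli3*-/- and at 169.9, 149.8 and 146 TPM in WT. Genes at large were also higher in replicates 2 and 3 on TPM. Against the other libraries of the group, the median of all expressed genes lay at -0.18, 0.17, 0.09 and -0.06 in replicates 1 to 4. That of the 30 replication genes lay at -0.30, 0.17, 0.17 and -0.05. Flank and lateral plate marker genes were also highest in replicates 2 and 3. Their summed TPM was 145, 212, 223 and 84.3 in *Gli3*-/- and 67.9, 31.9 and 30.8 in WT, and 2 of the 7 passed the test. The part of such tissue in the replication genes was not tested. Limb mesenchyme genes, too, were highest in replicates 2 and 3, at 646, 943, 836 and 802 TPM in *Gli3*-/-. They were at 687 to 860.3 TPM in WT, and 0 of 6 were called. Endothelial genes were at 119, 169, 136 and 124 TPM in *Gli3*-/- and 63.8 to 106 TPM in WT, with 0 of 6 called.

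At E10.5, after Hedgehog signalling has begun, loss of *Gli3* again moved none of the 53 genes past the test, although 747 of 15654 genes, or 4.77%, were called. With limma 12 of the 53, or 22.6%, had an unadjusted p under 0.05, as had 19.6% of all genes. Other settings called at most 2 of the 53, where 3.18% of all genes were called. Differences were small, from -0.16 to 0.35 with a median of 0.08 beside -0.02 for all genes, and all 53 of the 95% intervals lay within a factor of 1.5 either way. Positive differences numbered 38, and 43 of the 53 lay above the median gene. Groups were clear of overlap for 11 genes higher in *Gli3*-/- (20.8% of the 53, beside 7.87% of all genes tested), namely *Uhrf1*, *Ccne1*, *Mcm2*, *Cdc20*, *Cdt1*, *Rrm2*, *Gins1*, *Ccna2*, *Plk1*, *Kif23* and *Mcm3*, and for 1 lower (1.89%, beside 11.5%), the thymidylate synthase gene *Tyms*.

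The largest E10.5 differences were those of the mitotic kinase gene *Plk1* and of *Cdc20*, the activator of the anaphase-promoting complex. *Plk1* (chromosome 7, 122159439 to 122169873) was at 112, 96.6, 124 and 98.5 TPM in WT and at 129.9, 151 and 131 TPM in *Gli3*-/-, a difference of 0.35 (SE 0.10, adjusted p = 0.0898). *Cdc20* was at 155, 133, 168 and 140.1 TPM in WT and at 175, 203 and 179 TPM in *Gli3*-/-, a difference of 0.32 (SE 0.09, adjusted p = 0.091). *Ccne1*, which drives entry into S phase, was at 114, 94.6, 107 and 88.1 TPM and at 138, 117 and 120.5 TPM (0.31, SE 0.10, adjusted p = 0.128). All 3 were clear of overlap by a small margin. The lowest adjusted p belonged to cyclin A2 (*Ccna2*), at 159, 168, 158 and 168 TPM in WT and 202, 185 and 191 TPM in *Gli3*-/- (0.24, SE 0.06, adjusted p = 0.0597). *Rrm2* was at 345, 307, 339 and 299 TPM and then at 393, 377 and 383 TPM (0.25, adjusted p = 0.077). Cyclin A2 and *Rrm2* fall outside the 3 largest differences and were chosen for mention after their values were seen. *Mki67* (0.19, SE 0.12, adjusted p = 0.443), *Top2a* (-0.11, SE 0.09, adjusted p = 0.546) and *Pcna* (-0.14, SE 0.08, adjusted p = 0.372) did not pass, and their groups overlapped. Erythroid marker genes summed to 12535 to 17525 TPM in WT and to 15018, 17473 and 42854 TPM in *Gli3*-/-, while those of limb mesenchyme were at 834 to 1017 in WT and 645 to 684 in *Gli3*-/- (1 of 6 called higher and 4 lower) and those of surface ectoderm at 171 to 199.96 and 258 to 294 (1 of 6 called higher). The part of these cell types was not tested.

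The difference of the stage effect between the genotypes, tested as an interaction in a model of all 14 libraries, was called for 0 of the 53 genes, beside 2.13% of all genes. By limma 3 of them, or 5.66%, had an unadjusted p under 0.05, as had 21% of all genes. The largest were *Pole* (-0.68, SE 0.27, adjusted p = 0.191), *Lig1* (-0.45, SE 0.21, adjusted p = 0.241) and *Chaf1a* (-0.42, SE 0.21, adjusted p = 0.262), all with a smaller stage difference in *Gli3*-/-. Leaving out the library labelled E9.25 WT replicate 2, the values were -0.36 for *Pole*, -0.38 for *Lig1* and -0.37 for *Chaf1a*, and 0 of the 53 and 1.33% of all genes were called. An unadjusted p under 0.05 was seen for 1 of the 53 and for 15% of all genes. The largest values without this library were those of *Cenpe* (0.55, adjusted p = 0.431) and *Mki67* (0.49, adjusted p = 0.375). They have the opposite sign, a larger stage difference in *Gli3*-/-, and were -0.05 and -0.23 with the library. Of the 53 values 25 were positive without the library and 18 with it. The genes that passed the stage test in 1 genotype alone are thus not shown to differ between the genotypes.

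**Figure D4:**
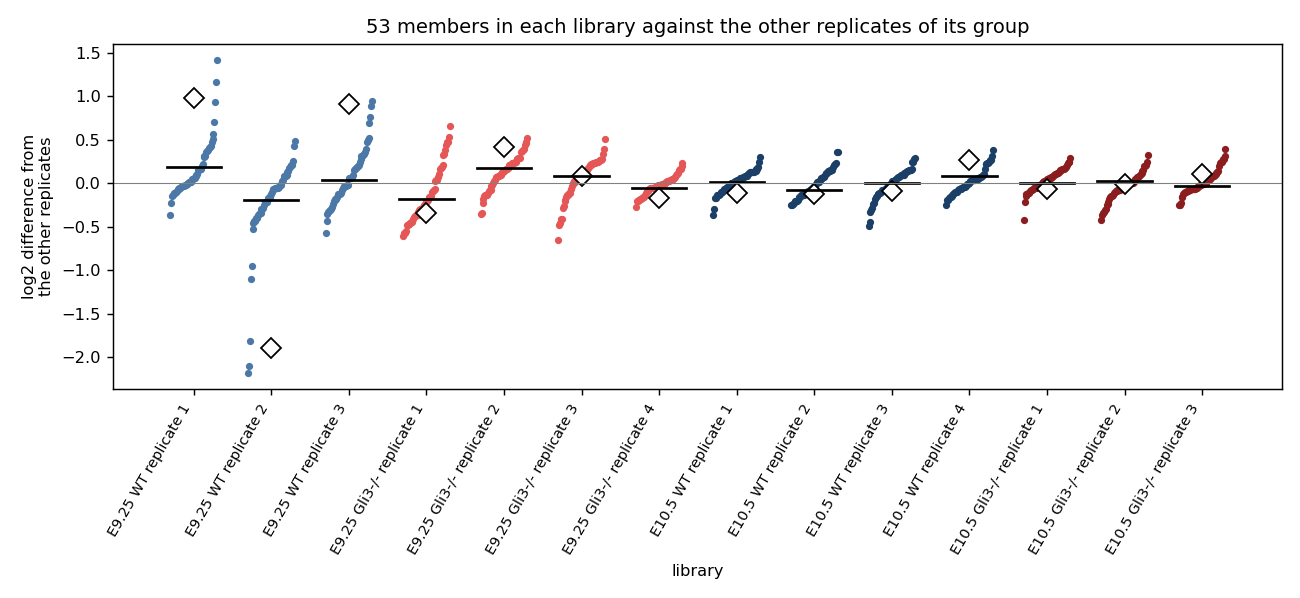
Deviation of each of the 53 genes (dots) in each library (x axis) from the mean of the other libraries of its group, in log2(TPM + 1), with bars for the median of all expressed genes and diamonds for the median of 25 genes with very long mRNAs. In the library labelled E9.25 WT replicate 2 the diamond lies at -1.89 and 4 of the 53 genes lie below -1, where 0 do in each of the other libraries.

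Other genes of the same pathways, from lists that hold none of the 53, are given as counts. Of 36 other replication genes 0 were called between the genotypes at either stage. By stage 11 were higher and 6 lower in WT (0 and 13 with size factors, 8 and 7 with quantile normalization, and 11 and 5 leaving out the library labelled E9.25 WT replicate 2), and 1 higher and 1 lower in *Gli3*-/- (1 and 3 with size factors, 3 and 0 with quantile normalization). The largest in WT were the maintenance methyltransferase gene *Dnmt1* (0.71), the dUTPase gene *Dut* (-0.69) and the origin-firing kinase gene *Cdc7* (0.64). Of 48 other mitosis genes 0 were called between the genotypes, with 2 at E10.5 under size factors and 1 under quantile normalization. By stage 13 were higher and 2 lower in WT (3 and 6 with size factors, 9 and 2 with quantile normalization, 13 and 2 leaving out the same library), and 12 higher and 1 lower in *Gli3*-/- (11 and 2 with size factors, 15 and 2 with quantile normalization). The largest in *Gli3*-/- were the condensin gene *Smc4* (1.01), the kinetochore gene *Casc5* (0.91) and the checkpoint gene *Mad2l1* (-0.68).

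Among regulators of G1 some genes did differ between the genotypes. Of 20 G1 cyclins, pocket proteins, other E2F factors and cyclin-dependent kinase inhibitors, 3 were higher in E10.5 *Gli3*-/- and 0 lower (5 and 0 with size factors), beside 4.77% of all genes called: the inhibitor gene *Cdkn1a* (1.03, adjusted p = 0.000643), the kinase gene *Cdk6* (0.70, adjusted p = 0.00249) and the cyclin gene *Ccnd1* (0.59, adjusted p = 0.00109). At E9.25 0 of 19 were called, where *Cdk6* and *Ccnd1* had differences of 1.30 and 0.67 (adjusted p = 0.217 and 0.178). By stage 12 were higher and 1 lower in WT (7 and 4 with size factors, 9 and 3 with quantile normalization, 9 and 1 leaving out the same library), and 5 higher and 1 lower in *Gli3*-/- (5 and 4 with size factors, 5 and 2 with quantile normalization). The interaction was called for *Cdkn1a* (1.27, adjusted p = 0.0065). Whether the counts differ between these lists was not tested.

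Of the 53 genes, 20 overlap another gene of the tables, 17 of them a gene with a TPM of at least 1 in some library, and whether the counting used strand is not stated. Some genes described above share bases with a gene on the opposite strand. *Gins2* shares 2758 bases with *Gse1*, *Pole* 1998 with *Gm15792*, *Lig1* 1439 with *6330408A02Rik* and *Plk1* 1016 with *RP23-136G1.3*. *Chaf1a* shares 982 with *Ubxn6*, *Ccna2* 863 with *Exosc9*, *Nusap1* 172 with *Oip5* and *Cdc20* 53 with *Elovl1*. Reads there could belong to either gene.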

How the data were processed

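The authors extracted RNA with TRIzol, made libraries with a NEBNext Ultra II kit, ran them on a NovaSeq as single-end reads of 100 bases and mapped these with HISAT2. The submitters' processing notes name the build mm10. The tool that made the gene tables is not given in the sources used here. The deposited TPM values were scaled by the authors to the same total in each library. The tables that the authors deposited also hold FPKM and coverage, the mean read depth per base, which were used to estimate reads per library. No count tests were run, because the tables hold no counts.

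Lines that repeat a gene ID were summed. A gene was tested where 3 or more of the libraries compared had a TPM of 1 or more, using limma 3.58.1 (R 4.3.3, eBayes with a trend) on log2(TPM + 1), two-sided, with Benjamini-Hochberg adjustment over all genes tested and a threshold of 0.05. Only the groups compared entered each fit, and the interaction used all 14 libraries. Steps were tested on simulated data. Tables and plots were made in Python 3.11.15 (NumPy 2.4.6, pandas 2.3.3, matplotlib 3.10.9, SciPy 1.17.1). The genes, lists and tests were chosen with earlier results of these data known, and so give no independent support.

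Named with values per library were *Mki67*, *Top2a*, *Pcna* and, in each comparison, up to 5 called genes per direction with the largest difference and no overlap, or the 3 largest where fewer than 3 were called. The most abundant gene of each role was named by its mean. The settings varied were the pseudocount (0.1), the filter (none, or 5 TPM), the trend (none), the scaling (quantile normalization, median-of-ratios size factors, TPM without mitochondrial and globin genes), sample weights, 1 model of all libraries, a replicate block and each library left out. The pathway lists under other scalings, and lists and counts leaving out the library labelled E9.25 WT replicate 2, were added after seeing the data, as was quantile normalization for the ratio of mitosis to replication genes. The estimated 38.1 to 56.8 M reads per library limit the precision of genes near the filter more than that of these abundant genes.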

Additional observations from a re-analysis of the deposited data

Results flagged for a closer look

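In 106 groups of 4 libraries (each of the 53 genes in E9.25 *Gli3*-/- and in E10.5 WT) the gap between the highest or lowest library and its neighbour was set against the range of the group, and 5 passed the 95% critical value of Dixon's test. Chance sets apart about 1 in 20 such groups, so this number is no more than chance gives. Values are log2(TPM + 1). In E9.25 *Gli3*-/- replicate 1, *Gins1* was at 6.5899 where the other 3 libraries were at 6.3988 to 6.4296, and *Nusap1* was at 5.3919 where the others were at 5.0457 to 5.0977. In E9.25 *Gli3*-/- replicate 2, *Rrm1* was at 7.5744, below the others at 7.6523 to 7.6667. In E10.5 WT, *E2f1* was at 4.4828 in replicate 2, below 4.6725 to 4.6797, and *Kif23* was at 5.6365 in replicate 3, below 5.7513 to 5.7692. The groups of 3, which hold the library labelled E9.25 WT replicate 2, were not examined in this way.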

How the results depend on the processing

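The count of 0 genes called between the genotypes at E9.25 became 5 in 1 model of all 14 libraries (*Chaf1a*, *Mcm6*, *Mcm3* and *Lig1* higher, *Cdk1* lower), where 8.03% of all genes were called, and ran from 0 to 0 with each library left out. At E10.5 it became 1 with size factors (5.19% of all genes called) and 1 with sample weights (8.66%). It became 2 with the replicate block by file number (*Cdc20* and *Plk1*, beside 3.18% of all genes). With each library left out it was 0 to 1, the 1 being *Plk1* without E10.5 WT replicate 3 (3.56%). The WT stage count of 17 (48.7% of all genes called) ran from 10 to 21 with a library left out. It was 10 without E10.5 WT replicate 4 (34.1%), 11 without E10.5 WT replicate 1 (34.9%) and 21 without E9.25 WT replicate 1 (54.5%). With the replicate block by title number it became 7 (30.4%). The block changed no other count by over 1.5 times. Whether the replicate numbers pair the samples is not known. Correlations of same-numbered deviations were -0.199 to -0.161 for the E9.25 groups. For the E10.5 groups they were -0.18 to 0.153 by title and 0.0522 to 0.316 by file. By file their mean was 0.189, against -0.0628 for libraries with different numbers, so pairing by file number is not settled there. For the stage the same-numbered correlations were -0.295 to 0.123 in WT. In *Gli3*-/- they were -0.0852 to 0.147 by title and -0.0939 to 0.166 by file. With size factors the median of the 53 genes moved to -0.086 at E9.25, -0.26 for the WT stage and 0.21 for the interaction. At E9.25 *Top2a* turned to -0.022 with sample weights and ran from -0.11 to 0.49 with a library left out, and *Mki67* ran from -0.31 to 0.89. For the WT stage, size factors turned *Mcm4* to -0.15, *Tpx2* to -0.044 and *Cenpa* to -0.051, and quantile normalization turned *Pcna* to 0.10. For the *Gli3*-/- stage *Pcna* turned to 0.10 with quantile normalization, 0.021 without mitochondrial and globin genes, 0.0037 and 0.043 with the replicate block by title and by file, and ran from -0.055 to 0.053 with a library left out. The cause of these changes was not tested, beyond the size factors, which by construction set the median gene near 0. Of the values for single named genes under other settings, 712 kept direction and side of the threshold, 67 lost the call, 10 gained one and 14 changed sign.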

Other observations

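The library labelled E9.25 WT replicate 2 did not lower all of the 53 genes alike. Its median deviation from the other libraries of its group was -0.30 for the 23 mitosis genes and -0.09 for the 30 replication genes, and it ranged from -2.18 for *Mki67* to 0.48 for *Cdk1*. Its summed TPM of the 2 proliferation markers *Mki67* and *Top2a* was 156, against 352 and 379 in the other E9.25 WT libraries, while its summed TPM of the 7 mitotic cyclins and kinases was 983, between the 965 and 1006 of the others. *Pcna* was at 549.6 TPM in it and at 603 and 616 TPM in the others.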
